A study of Homo sapiens with 4 samples.

Results

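The genes described here are 10 signalling genes of the BMP and TGF-beta pathways, namely the ligand genes BMP2, BMP4, TGFB1, TGFB2 and INHBA, the inhibitory SMAD genes SMAD6 and SMAD7, and the ID genes ID1, ID2 and ID3. They were chosen by symbol, as every probe whose platform annotation names only that gene, and they are 10 of the 18661 genes with a named probe. The cells were SW1353, a human chondrosarcoma line that is used as a model of chondrocytes and that derives from a tumour, not from cartilage. In RNA of a whole culture, fewer cells with a transcript and less of it per cell cannot be told apart. Expression was measured on 4 Illumina whole-genome beadarrays, with 1 array per condition. Con cells received DMSO alone. IL1 cells received DMSO for 1 h and then interleukin-1alpha (IL-1) for 6 h. IL1_TSA cells received trichostatin A (TSA) at 250 ng/ml for 1 h before IL-1 for 6 h, and Con_TSA cells received TSA at 250 ng/ml without IL-1. TSA inhibits the zinc-dependent histone deacetylases. The concentration of IL-1 on the arrays was not given in the sources used here, and the labelled stimulation of 6 h is used here although legends in the study give a longer one.

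TGF-beta family ligands bind paired receptor kinases at the cell surface, which phosphorylate SMAD proteins that then enter the nucleus with SMAD4 and bind DNA. The TGF-beta and activin branch works through SMAD2 and SMAD3, and the BMP branch through SMAD1 and its relatives. SMAD6 and SMAD7 are made in response to the pathway and inhibit it, SMAD6 mainly the BMP branch and SMAD7 both. ID1, ID2 and ID3 are classical BMP targets, whose proteins lack a DNA-binding region and hold E proteins away from DNA. In cartilage, BMPs promote chondrocyte differentiation, and TGF-beta is known for its part in keeping articular cartilage stable.

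Because each condition had 1 array, a difference below is a difference between 2 arrays, with no test and no p-value across genes. Intensities were background-corrected, quantile-normalised and given as log2 levels. The words higher and lower are used of a gene whose log2 difference reached 1.5-fold (0.585 on the log2 scale) and whose brighter array detected it, at a detection p-value under 0.01. Where the dimmer array lay at the limit of detection, the fold is given as at least N-fold, measured against the lowest level of any detected probe on that array or the gene's own level, whichever was higher. As an error, each difference carries the SD of a probe's log2 difference, estimated from genes of like level with more than 1 probe. That SD covers disagreement between probes of a gene and leaves out the spread between cultures, which these arrays do not measure.

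The 10 genes had 14 probes, of which 10 were detected on at least 1 array. TGFB1 and INHBA, each with 1 probe, were not detected on any of the 4 arrays, with detection p-values of 0.19 to 0.848 for TGFB1 and 0.242 to 0.826 for INHBA. TGFB1 encodes a TGF-beta ligand that many cell types make and INHBA the subunit of activin A, and neither is compared below. BMP4 and ID1 also had a second probe that no array detected (detection p-values of 0.155 to 0.538 and 0.12 to 0.947), and their values below come from the other probe. This left 8 genes, 6 of them with 1 probe and SMAD7 and ID2 with 2, among the 10128 genes analysed. Of the 8, BMP2, BMP4, SMAD7, ID1, ID2 and ID3 were detected on all 4 arrays, TGFB2 was not detected on Con_TSA, and SMAD6 was not detected on IL1.

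**Figure D1:**
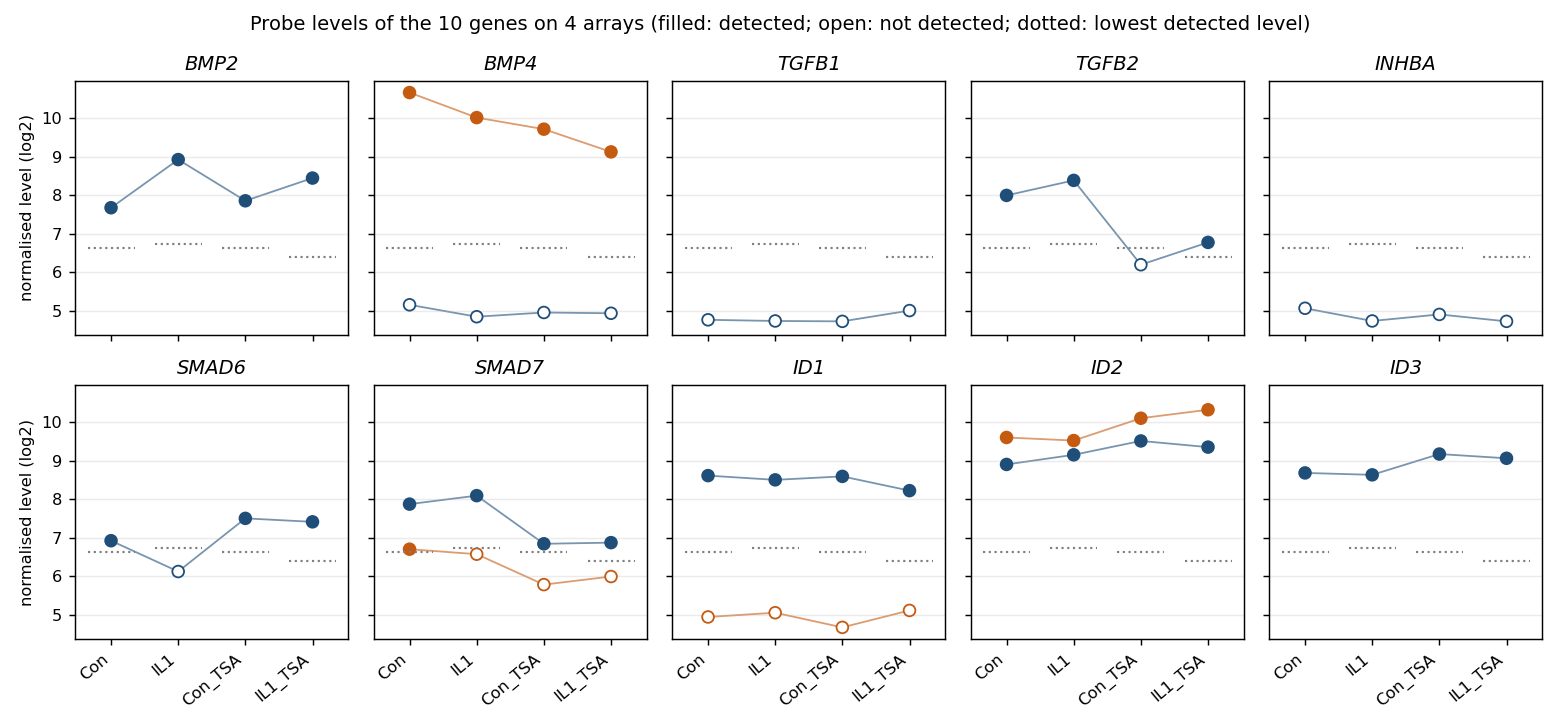
Normalised log2 level (vertical axis) of every probe of the 10 genes on the 4 arrays (horizontal axis), with filled points for probes detected at p under 0.01, open points for those not detected, a separate colour for each probe of a gene, and a dotted line at the lowest level of any detected probe on that array. BMP4 went from 10.66 on Con to 9.12 on IL1_TSA, TGFB2 and SMAD7 were low on both TSA arrays, and ID2 and ID3 had slightly larger levels on both.

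The arrays themselves were alike in depth of detection, with 26.8% to 28.8% of the 48784 probes detected. The median raw intensity was 113 on IL1_TSA against 86.9 to 95.3 on the others. Of 10 chondrocyte markers 3 were measured (SOX9, COL11A1 and HAPLN1), and ACAN and COL2A1, which define cartilage matrix, were not detected on any array. None of 3 leukocyte markers was detected, and of 4 mesenchymal markers measured COL1A1 and FN1 were lower on IL1_TSA than on IL1. Of the other markers, KRT18 was lower on IL1 (log2 difference -0.72) and on Con_TSA (-0.92) than on Con, and VWF was lower on IL1 than on Con (-0.77), and their part in the results was not tested.

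Promoter sequence is shown for 5 members, TGFB2 and SMAD7 being lower and SMAD6, ID2 and ID3 having positive differences on both TSA arrays. Of those positive differences only that of SMAD6 on IL1_TSA against IL1 reached 1.5-fold. BMP4, which was also lower on both TSA arrays, is not printed. Each sequence shown is the 250 bases before a RefSeq transcription start (assembly GRCh38.p14), written 5′ to 3′ on the strand of the gene. Of the 10 genes, 9 had an entry in the table of promoters used, BMP2 being the other, and BMP4 and SMAD7 had 3 starts each, which made 13 windows. Capitals mark the SMAD-binding letters CAGAC and GTCTAGAC (and GGCGCC, a letter string of BMP-responsive elements), read on either strand, and the κB decamer, the sequence that NF-κB binds.
TGFB2, chr1:218345086-218345335, plus strand: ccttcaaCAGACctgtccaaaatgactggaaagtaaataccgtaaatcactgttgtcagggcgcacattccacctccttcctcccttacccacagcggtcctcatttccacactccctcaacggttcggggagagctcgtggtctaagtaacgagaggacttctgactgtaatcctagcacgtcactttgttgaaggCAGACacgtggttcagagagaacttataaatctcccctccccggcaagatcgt
SMAD7, first of 3 starts, chr18:48950966-48951215, minus strand: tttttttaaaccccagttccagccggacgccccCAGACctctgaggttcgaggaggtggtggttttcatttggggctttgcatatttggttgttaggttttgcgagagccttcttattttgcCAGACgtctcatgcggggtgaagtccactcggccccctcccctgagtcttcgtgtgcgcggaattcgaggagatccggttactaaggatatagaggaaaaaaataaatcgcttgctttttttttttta
SMAD6, chr15:66701986-66702235, plus strand: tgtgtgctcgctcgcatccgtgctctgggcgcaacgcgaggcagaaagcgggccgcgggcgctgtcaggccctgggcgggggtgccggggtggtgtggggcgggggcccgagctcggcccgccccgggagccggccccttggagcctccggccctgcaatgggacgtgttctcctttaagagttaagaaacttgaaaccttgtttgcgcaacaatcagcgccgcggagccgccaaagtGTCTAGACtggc
ID2, chr2:8681806-8682055, plus strand: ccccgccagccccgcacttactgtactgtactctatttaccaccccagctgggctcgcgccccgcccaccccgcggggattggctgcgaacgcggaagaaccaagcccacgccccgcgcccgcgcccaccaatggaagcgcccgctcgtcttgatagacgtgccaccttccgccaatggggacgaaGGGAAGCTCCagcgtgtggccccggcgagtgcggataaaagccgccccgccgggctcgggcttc
ID3, chr1:23559502-23559751, minus strand: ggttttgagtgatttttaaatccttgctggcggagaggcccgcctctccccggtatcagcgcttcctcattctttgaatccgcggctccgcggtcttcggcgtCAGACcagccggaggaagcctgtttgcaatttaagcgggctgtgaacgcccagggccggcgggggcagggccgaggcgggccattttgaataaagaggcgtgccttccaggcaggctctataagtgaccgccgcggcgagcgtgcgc

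CAGAC stood 243 and 53 bases before the TGFB2 start, 217 and 128 bases before this SMAD7 start and 147 bases before the ID3 start. With BMP4 that made 4 of the 9 members. Over all starts of the members, 6 of the 13 windows held CAGAC. These 5 letters are common, being found in 38.0% of 35116 human promoter windows of the same length. The palindrome GTCTAGAC, searched for after the sequences had been read, lay 12 bases before the SMAD6 start and was found in 0.182% of all windows. GGCGCC was found in 1 of 3 BMP4 windows (16.4% of all windows). A κB decamer lay 64 bases before the ID2 start and another before the TGFB1 start, as in 9.96% of all windows. The E-box CANNTG, the letters bound by the E proteins that ID proteins hold back, was found in 4 of 9 members. It was found in 5 of their 13 windows and in 61.8% of all windows. The E-box before TGFB2, 49 bases from the start, shares 1 base with the nearer CAGAC. A match to letters is a description of the sequence, and neither its use as a site nor any part in the expression values was tested. The 13 windows of the members held from 42.8% (INHBA) to 76.8% (TGFB1) G and C, where the median over all windows was 58.0%. The 3 windows of BMP4 held 63.6%, 56.0% and 70.4%, those of SMAD7 48.0%, 58.4% and 48.4%, and the one of TGFB2 50.4%, so the genes that were lower with TSA lay on both sides of that median.

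The first comparison asked what IL-1 did to these genes without the inhibitor. BMP2 was higher, by 2.38-fold, and BMP4 and SMAD6 were lower, while TGFB2, SMAD7 and the 3 ID genes differed by less than 1.5-fold. Thus 1 of 8 members was higher, where 8.54% of all genes were, and 2 of 8 were lower, where 7.93% were. The median log2 difference was 0.00 over the members and -0.10 over all genes.

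BMP2 encodes a BMP ligand that drives cartilage and bone formation. Its level was 7.67 on Con, 7.85 on Con_TSA, 8.92 on IL1 and 8.44 on IL1_TSA, from raw intensities of 271, 245, 527 and 541. Both arrays with IL-1 stood above both arrays without it. The difference of IL1 from Con was 1.25 on the log2 scale against a probe SD of 0.29. On the values as the authors deposited them it was 0.50, or 1.41-fold, which is under the 1.5-fold limit.

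BMP4, a close relative of BMP2 that signals through the same receptors, had levels of 10.66 on Con, 9.71 on Con_TSA, 10.01 on IL1 and 9.12 on IL1_TSA. Con was the highest of the 4 arrays and the array with both agents the lowest. IL1 was 1.57-fold below Con (log2 difference -0.65, probe SD 0.28), and the deposited values gave -0.52. BMP2 and BMP4 therefore differed in opposite directions with IL-1.

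SMAD6, the inhibitor of the BMP branch, had levels of 6.92 on Con, 7.50 on Con_TSA, 6.12 on IL1 and 7.41 on IL1_TSA. The IL1 array was the lowest and did not detect the gene (detection p-value 0.0184). The log2 difference of IL1 from Con was -0.80 with a probe SD of 0.43, and since the IL1 level lay under the limit of detection it says only that SMAD6 was at least 1.14-fold lower. The deposited values differed by -0.06, and the call was lost on them and without background correction.

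The remaining members differed little between IL1 and Con. TGFB2 had a log2 difference of 0.39 (1.31-fold, probe SD 0.29) and SMAD7 one of 0.04 (probe SD 0.35). ID1, ID2 and ID3 had log2 differences of -0.11, 0.08 and -0.05, each smaller than the probe SD at its level.

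The second comparison asked what TSA did in cells without IL-1. TGFB2, BMP4 and SMAD7 were lower on Con_TSA than on Con, ID2 and ID3 had positive differences of a little less than 1.5-fold, and ID1 and BMP2 differed little. No member was higher, where 16.3% of all genes were, and 3 of 8 were lower, where 16.4% were. The median log2 difference was 0.08 over the members and -0.01 over all genes.

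TGFB2 encodes a secreted TGF-beta ligand. Its level was 7.99 on Con, 6.19 on Con_TSA, 8.38 on IL1 and 6.77 on IL1_TSA, from raw intensities of 322, 125, 382 and 228. Both TSA arrays lay below both arrays without TSA, and Con_TSA no longer detected the gene (detection p-value 0.0171). The log2 difference of Con_TSA from Con was -1.80 with a probe SD of 0.37, which gives at least 2.58-fold lower. The deposited values gave -0.35.

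BMP4 was 1.93-fold lower on Con_TSA than on Con, with a log2 difference of -0.95 and a probe SD of 0.21. This was the one call among the members that the deposited values also made, at -0.63 or 1.55-fold. Its level on every array was well above the limit of detection.

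SMAD7, the general inhibitory SMAD, was measured by 2 probes. The brighter probe had levels of 7.87 on Con, 6.84 on Con_TSA, 8.09 on IL1 and 6.87 on IL1_TSA, and was detected on all 4. The other had levels of 6.70, 5.78, 6.57 and 5.99 on the same arrays and was detected on Con only. On both probes the TSA arrays lay below the arrays without TSA. The brighter probe was 2.04-fold lower on Con_TSA than on Con, and the mean of both probes gave a log2 difference of -0.97 (probe SD 0.49), at least 1.58-fold. The deposited values gave -0.17, and without background correction the difference was -0.54 in this comparison and in that of IL1_TSA with IL1, so that SMAD7 lost both its calls.

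ID2 was also measured by 2 probes, both detected on all 4 arrays. One had levels of 8.90 on Con, 9.51 on Con_TSA, 9.15 on IL1 and 9.35 on IL1_TSA, and the other had 9.60, 10.10, 9.52 and 10.32. Both TSA arrays stood above both other arrays on each probe. The mean log2 difference of Con_TSA from Con was 0.55 (1.47-fold, probe SD 0.28), with 1.52-fold and 1.41-fold on the single probes, and 0.40 on the deposited values.

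ID3 had levels of 8.68 on Con, 9.17 on Con_TSA, 8.63 on IL1 and 9.06 on IL1_TSA. Both TSA arrays were the higher ones. The difference of Con_TSA from Con was 0.50 (1.41-fold, probe SD 0.30), and 0.29 on the deposited values. ID1 did not share this pattern. Its levels were 8.61 on Con, 8.59 on Con_TSA, 8.50 on IL1 and 8.22 on IL1_TSA, with Con_TSA 0.02 below Con and a probe SD of 0.30. SMAD6 was 1.49-fold above Con on Con_TSA (log2 difference 0.58, probe SD 0.37), just inside the limit, with 0.10 on the deposited values.

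**Figure D2:**
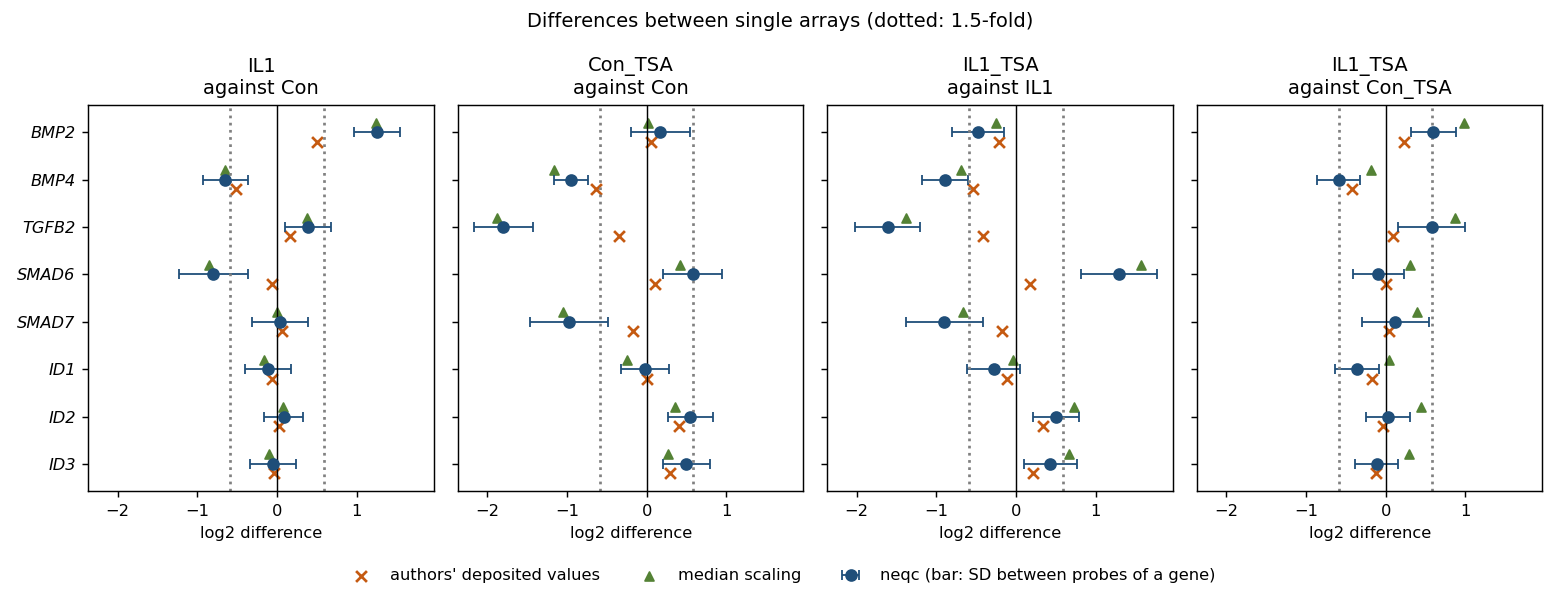
Log2 difference between 2 arrays (horizontal axis) for the 8 members measured (rows) in the 4 comparisons (panels), as circles for the background-corrected, quantile-normalised values with bars of 1 probe SD, triangles for scaling by the median and crosses for the values as the authors deposited them, and with dotted lines at 1.5-fold. For TGFB2 on Con_TSA against Con the cross lies at -0.35 and the circle at -1.80, and BMP4 lies left of 0 in all 4 panels.

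The third comparison set IL1_TSA against IL1 and asked what the inhibitor did in stimulated cells. BMP4, TGFB2 and SMAD7 were again lower and SMAD6 was higher. Of 8 members 1 was higher, where 21.2% of all genes were, and 3 were lower, where 18.2% were. The median log2 difference was -0.38 over the members and 0.02 over all genes.

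TGFB2 was 3.06-fold lower on IL1_TSA than on IL1, with a log2 difference of -1.61 and a probe SD of 0.41, and it was detected on both arrays. BMP4 was 1.86-fold lower (log2 difference -0.89, probe SD 0.29). For SMAD7 the brighter probe was 2.33-fold lower, the other had a log2 difference of -0.58 with neither array detecting it, and their mean differed by -0.90 (probe SD 0.48). The deposited values gave -0.42, -0.54 and -0.18 for the 3 genes, all under 1.5-fold.

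SMAD6 had a log2 difference of 1.29 (probe SD 0.48) and, with IL1 under the limit of detection, was at least 1.60-fold higher on IL1_TSA. The deposited values gave 0.18. BMP2 had a log2 difference of -0.48 (1.40-fold, probe SD 0.33), which is within the limit. ID2 and ID3 differed by 0.50 (1.41-fold) and 0.43 (1.35-fold), and ID1 by -0.28, with probe SDs of 0.29, 0.33 and 0.33. The probes of ID2 gave 0.20 and 0.80, the second being 1.74-fold.

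TSA was thus compared with its absence on separate pairs of arrays, Con_TSA with Con and IL1_TSA with IL1. Of the 8 members, 7 had the same sign in both (87.5%), against 77.4% of all genes, and the exception was BMP2 at 0.17 and -0.48. The deposited values also gave 7 of 8, against 77.5% of all genes, and median scaling 7 of 8, against 65.8%.

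The fourth comparison, IL1_TSA against Con_TSA, asked what IL-1 did in the presence of the inhibitor. BMP2 was higher by 1.51-fold (log2 difference 0.60, probe SD 0.28) and BMP4 lower (-0.59, probe SD 0.27), both at the edge of the limit. These are 1 of 8 members higher, where 4.20% of all genes were, and 1 of 8 lower, where 2.75% were. The median log2 difference was -0.03 over the members and over all genes. TGFB2 came to 0.58, with Con_TSA under the limit of detection, and was therefore at least 1.10-fold above it. SMAD6, SMAD7, ID2 and ID3 differed by -0.09, 0.12, 0.03 and -0.11, and ID1 by -0.36 (1.29-fold).

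The IL-1 difference of BMP2 was 1.25 without TSA and 0.60 with it, a change of -0.65 that no test could be set against, and -0.27 on the deposited values. For SMAD6 the IL-1 difference without TSA is only a bound, since IL1 did not detect the gene, and no change is given. BMP4 kept nearly the same difference, -0.65 and -0.59. All 8 members had the same sign of IL-1 difference with and without TSA, against 60.3% of all genes. On the deposited values it was 6 of 8, against 62.1%, and with median scaling 4 of 8, against 41.9%, where the median of all genes differed by 0.35 on IL1_TSA against Con_TSA. In the count of 8, both differences of SMAD7, ID2 and ID3 were smaller than the probe SD, as was that of SMAD6 with TSA. Their shared signs therefore lay within the disagreement between probes.

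The calls depended on the scale. On the deposited values no member was called for IL1 against Con, where 3.35% of all genes were higher and 0.849% lower, and BMP4 alone was lower for Con_TSA against Con, where 5.02% were higher and 3.97% lower. No member was called on them for IL1_TSA against IL1 (6.36% of all genes higher and 5.79% lower) or for IL1_TSA against Con_TSA (0.879% and 0.109%). With each array scaled by its median in place of quantile normalisation, the same members were called as above for IL1 against Con (8.44% of all genes higher and 8.81% lower) and for Con_TSA against Con (23.0% of all genes lower). Median scaling added ID2 and ID3 to the members that were higher on IL1_TSA than on IL1, which made 3 of 8 (29.6% of all genes higher and 12.8% lower). It also added TGFB2 and dropped BMP4 for IL1_TSA against Con_TSA (20.5% and 0.425%). That scaling moved the median log2 difference of all genes to 0.22 and 0.35 in these last comparisons, and relative to it ID2 differed by 0.50 and ID3 by 0.45 on IL1_TSA against IL1.

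The other genes of the pathway were taken from 7 lists of ligands, receptors, intracellular regulators, extracellular antagonists, TGF-beta targets, BMP targets and partners of ID proteins. Of 102 such genes on the array 59 were measured. On IL1 against Con 13 of the 59 (22.0%) were higher and 3 (5.08%) lower, beside 8.54% and 7.93% of all genes. On Con_TSA against Con 10 (16.9%) were higher and 20 (33.9%) lower, beside 16.3% and 16.4% of all genes, and their median log2 difference was -0.34 where that of all genes was -0.01. On IL1_TSA against IL1 the counts were 8 (13.6%) and 20 (33.9%), beside 21.2% and 18.2% of all genes, at a median of -0.31 against 0.02. On IL1_TSA against Con_TSA 6 (10.2%) were higher and 0 lower, beside 4.20% and 2.75%, with medians of -0.01 and -0.03. On the deposited values the same counts were 5 (8.47%) and 0, 5 (8.47%) and 7 (11.9%), 4 (6.78%) and 7 (11.9%), and 4 (6.78%) and 0. The shares of all genes higher and lower on them were 3.35% and 0.849%, 5.02% and 3.97%, 6.36% and 5.79%, and 0.879% and 0.109%. The lists were written with earlier results of these data known, and the counts are descriptions.

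**Figure D3:**
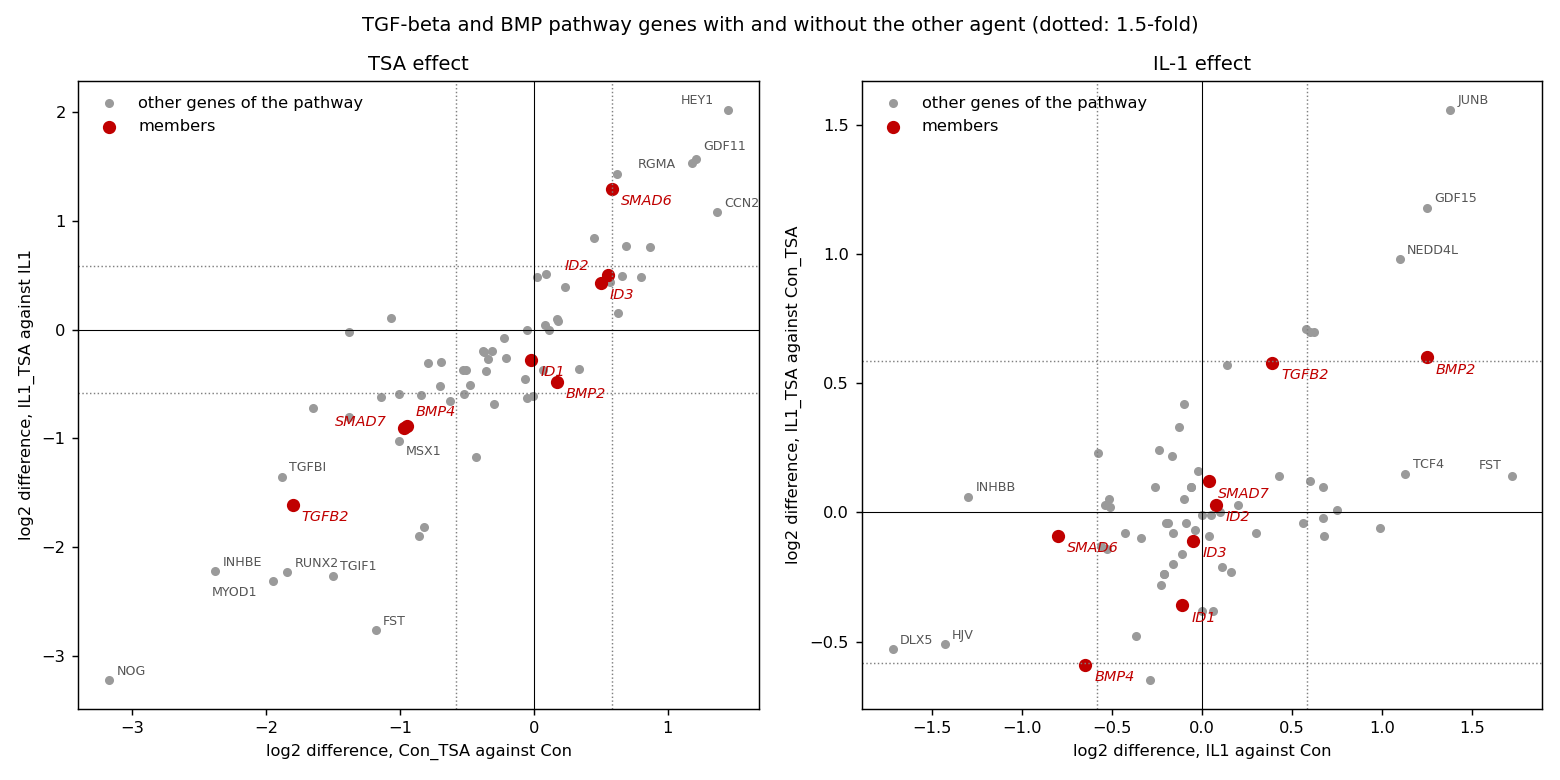
Log2 difference of the TSA arrays (left panel, with IL-1 against without) and of the IL-1 arrays (right panel, with TSA against without) for the 8 members in red and the 59 other pathway genes in grey, with dotted lines at 1.5-fold. TGFB2, BMP4 and SMAD7 lie at the lower left of the TSA panel with NOG, FST, RUNX2 and TGIF1, and BMP2 lies at the upper right of the IL-1 panel with JUNB, GDF15 and NEDD4L.

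Of 26 other ligand genes 7 were measured. TGFB3, the third TGF-beta ligand, was lower with TSA like TGFB2, by 2.60-fold without IL-1 and 1.75-fold with it. INHBE, an activin subunit of liver, was at least 4.47-fold lower on Con_TSA than on Con and 4.66-fold lower on IL1_TSA than on IL1. Its level of 6.51 on IL1_TSA lay just above the lowest level of any detected probe there, 6.39. INHBB, the subunit of activin B, was at least 2.29-fold lower on Con_TSA and at least 2.13-fold lower on IL1 than on Con. GDF11 had levels of 7.14 on Con, 8.35 on Con_TSA, 6.88 on IL1 and 8.45 on IL1_TSA, and was 2.31-fold and 2.97-fold higher with TSA. BMP6 was 1.54-fold and 2.70-fold higher. On the deposited values GDF11 gave 0.50 and 0.56 and BMP6 0.29 and 0.51, all under 1.5-fold. INHBE kept both its calls on them (-0.69 and -0.60), and TGFB3 kept the one without IL-1 (-0.71) but not the one with it (-0.37). INHBB kept neither (-0.28 on Con_TSA and -0.22 on IL1). With IL-1, GDF15, a stress-induced cytokine of the family, was 2.38-fold higher without TSA and 2.26-fold higher with it. It kept both calls on the deposited values (1.06 and 0.97).

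Among 11 receptor and co-receptor genes measured, 2 were higher on Con_TSA than on Con (TGFBR3 and RGMA) and 1 on IL1_TSA than on IL1 (RGMA). Of all genes, 16.3% and 21.2% were higher. In each of these comparisons 4 were lower, TGFBR2, ACVR1B and BMPR1B in both, HJV on Con_TSA and BMPR2 on IL1_TSA. Of all genes, 16.4% and 18.2% were lower. On the deposited values only TGFBR2 on Con_TSA against Con kept its call (-0.93). TGFBR2, the receptor that binds TGF-beta first, had log2 differences of -1.14 without IL-1 (2.21-fold) and -0.62 with it (1.54-fold). TGFBR3, a co-receptor that presents TGF-beta, was 1.55-fold higher on Con_TSA than on Con, and 1.52-fold higher on IL1 than on Con. RGMA, a BMP co-receptor, was higher by at least 2.21-fold on Con_TSA and 1.95-fold on IL1_TSA. HJV, another BMP co-receptor, was detected on Con only and was at least 1.87-fold lower on Con_TSA and at least 1.74-fold lower on IL1.

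Of 14 other SMADs and intracellular regulators measured, 5 were higher and 0 lower on IL1 against Con, where 8.54% and 7.93% of all genes were. With TSA, 2 were higher and 3 lower on Con_TSA against Con (16.3% and 16.4% of all genes). On IL1_TSA against IL1 3 were higher and 5 lower (21.2% and 18.2% of all genes). On the deposited values the same counts were 1 and 0 (3.35% and 0.849% of all genes), 2 and 1 (5.02% and 3.97%), and 2 and 1 (6.36% and 5.79%). NEDD4L, a ubiquitin ligase that acts on activated SMADs, had levels of 9.25 on Con, 10.12 on Con_TSA, 10.35 on IL1 and 11.11 on IL1_TSA, and was higher in all 4 comparisons, by 1.69-fold to 2.14-fold. It kept all 4 calls on the deposited values. TGIF1, a co-repressor of SMAD2 and SMAD3, was 1.60-fold higher with IL-1 and then 2.82-fold and 4.80-fold lower with TSA. The deposited values kept its TSA calls (-0.84 and -1.19) but not the IL-1 call (0.29). SMAD3 was 1.60-fold higher on IL1 than on Con and 1.54-fold lower on IL1_TSA than on IL1, and lost both calls on the deposited values (0.46 and -0.43). SMAD1 and SMURF1 were detected on IL1 only, and there stood at least 1.34-fold and 1.08-fold above Con. On IL1_TSA they were at least 1.58-fold and 1.27-fold lower than on IL1. Neither SMAD1 nor SMURF1 kept a call on the deposited values.

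The extracellular antagonists, which bind ligands and keep them from receptors, were listed with the proteins that keep TGF-beta latent. Of 11 measured, 3 were higher and 0 lower on IL1 against Con, where 8.54% and 7.93% of all genes were. On Con_TSA against Con 2 were higher (TWSG1 and LTBP3) and 2 lower (NOG and FST), beside 16.3% and 16.4% of all genes. On IL1_TSA against IL1 0 were higher and the same 2 lower, beside 21.2% and 18.2%. TWSG1, which binds BMPs, was 1.58-fold higher on Con_TSA and kept that call on the deposited values (0.62), and LTBP3, which holds latent TGF-beta, was 1.74-fold higher (0.28 on the deposited values). NOG encodes noggin, an antagonist of BMP2 and BMP4, and had levels of 8.27 on Con, 5.10 on Con_TSA, 8.17 on IL1 and 4.94 on IL1_TSA. Neither TSA array detected it, and it was at least 3.14-fold lower on Con_TSA and at least 3.42-fold lower on IL1_TSA. FST encodes follistatin, which binds activins, and had levels of 9.15 on Con, 7.97 on Con_TSA, 10.87 on IL1 and 8.11 on IL1_TSA. It stood highest on IL1, 3.29-fold above Con, and was 2.27-fold lower on Con_TSA than on Con and 6.80-fold lower on IL1_TSA than on IL1. FST kept calls on the deposited values for the last difference (-1.61) and for IL-1 (1.17), but not for TSA alone (-0.35), and NOG kept neither (-0.51 and -0.54).

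The 9 TGF-beta targets measured differed in both directions with TSA. On Con_TSA against Con 1 was higher and 3 lower, beside 16.3% and 16.4% of all genes. On IL1_TSA against IL1 2 were higher and 3 lower, beside 21.2% and 18.2%. CCN2, the matricellular protein CTGF, was 2.58-fold and 2.11-fold higher with TSA, while TGFBI, a secreted matrix protein, was 3.67-fold and 2.55-fold lower. JUNB was 2.61-fold and 2.96-fold higher with IL-1. Beside ID1, ID2 and ID3, 4 other BMP targets were measured. HEY1, a transcriptional repressor, was 2.73-fold and 4.05-fold higher with TSA, and kept both calls on the deposited values (0.77 and 0.86). RUNX2, the transcription factor of bone and hypertrophic cartilage, was 3.59-fold and 4.71-fold lower. Its levels of 6.69 on Con_TSA and 6.45 on IL1_TSA lay just above the lowest level of any detected probe there, 6.63 and 6.39. The deposited values of RUNX2 gave -0.53 and -0.58, both under 1.5-fold. MSX1, a homeobox factor, was 2.02-fold and 2.03-fold lower, and kept both calls on the deposited values (-0.75 and -0.83). DLX5 was 3.29-fold lower with IL-1 and 2.10-fold lower on Con_TSA than on Con, and lost both calls on the deposited values (-0.53 and -0.44).

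Of the partners of ID proteins 5 were measured, and 3 were lower in each TSA comparison while none was higher. Of all genes, 16.4% and 18.2% were lower and 16.3% and 21.2% higher. TCF4, an E protein, had levels of 8.17 on Con, 7.35 on Con_TSA, 9.31 on IL1 and 7.50 on IL1_TSA, and was 2.19-fold higher with IL-1, 1.77-fold lower with TSA alone and 3.50-fold lower on IL1_TSA than on IL1. TCF12, another E protein, was lower with log2 differences of -1.01 and -0.59. MYOD1, a myogenic factor that pairs with E proteins, was lower by at least 2.54-fold on Con_TSA and 2.45-fold on IL1_TSA, neither of which detected it. The other partners measured, TCF3 and TWIST1, differed by 0.07 and -0.53 on Con_TSA against Con and by -0.37 each on IL1_TSA against IL1. On the deposited values 1 partner was lower in each TSA comparison, TCF12 without IL-1 and TCF4 with it, where 3.97% and 5.79% of all genes were.

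**Figure D4:**
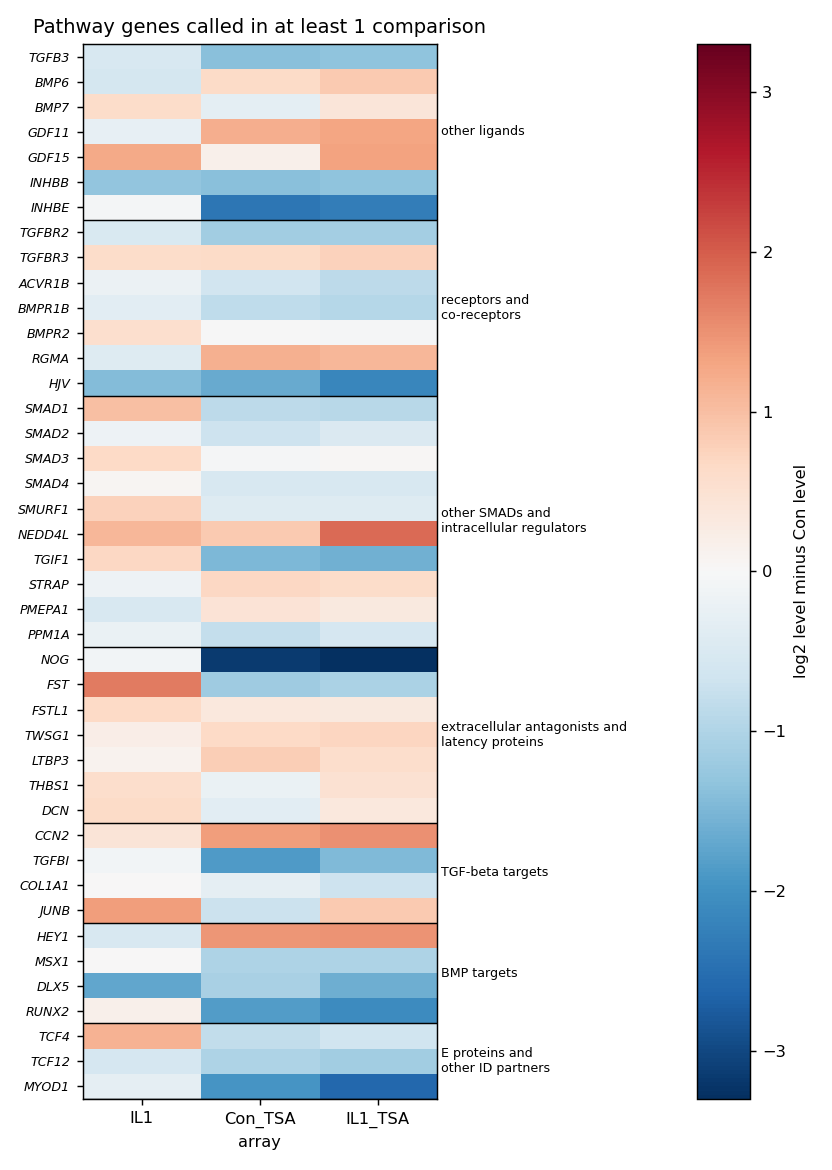
Log2 level minus the Con level (colour scale) on the IL1, Con_TSA and IL1_TSA arrays (columns) for each pathway gene that differed by 1.5-fold in at least 1 comparison (rows), grouped by list. NOG, INHBE, RUNX2 and MYOD1 are blue on both TSA arrays and near white on IL1, FST is red on IL1 only, and HEY1, GDF11 and CCN2 are red on both TSA arrays.

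For each member detected on all 4 arrays whose levels spanned at least 1 on the log2 scale, the genes with the closest pattern were sought among 8360 genes, by the root mean square distance of 4 centred log2 levels. For BMP2 they were ADGRE1 (distance 0.061) and PIM1 (0.067), and 106 genes lay within 0.25. For BMP4 they were ZNF33A (0.052) and TMEM80 (0.072), with 270 genes within 0.25. For SMAD7 they were TUBB6 (0.026) and B3GALNT1 (0.03), with 925 genes within 0.25. On the deposited values these distances were 0.13 for ADGRE1, 0.182 for PIM1, 0.246 for ZNF33A and 0.248 for TMEM80. There TUBB6 stood at 0.213, and only B3GALNT1, at 0.011, stayed as close. With 4 arrays many genes share a pattern, and a small distance is a description of these levels only.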

How the data were processed

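The authors deposited, for each of the 4 arrays, raw probe intensity with a detection p-value, and log2 values that they had made with lumi (variance-stabilising transform and robust spline normalisation). Intensities were processed again with limma 3.58.1 in R 4.3.3 (neqc, with background estimated through the detection p-values, an offset of 16 and quantile normalisation), and the deposited log2 values were an alternative. A probe was kept if any array detected it at p under 0.01 (15088 of 48784). GEO's platform annotation gave 1 gene for 27565 probes, several for 13 and none for 21206, and kept probes of a gene were averaged. No p-value across genes was computed, since each condition had 1 array, and the number of arrays limits the precision. Differences were called at 1.5-fold, beside the percent of all genes called. The call rule was tested on simulated arrays, with differences well above the 1.5-fold limit put into genes detected on all 4 arrays. That does not test calls near the limit or at the limit of detection, and the simulated noise was smaller than the probe SD at the levels of the members. The members and lists were chosen with earlier results of these data known. Text names all members, up to 4 genes of each list with the largest called differences in a comparison, and the closest patterns. Alternatives were the deposited values, no background correction, median scaling, an offset of 50, detection on all 4 arrays, detection p-values under 0.05, the brightest probe and a 2-fold limit. Tables were made with Python 3.11.15 and pandas 2.3.3. Promoter sequences are from RefSeq (GRCh38.p14). The series text spells the inhibitor TAA where the labels have TSA.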

Additional observations from a re-analysis of the deposited data

How the results depend on the processing

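No paired analysis was possible because every array carries replicate number 1, so no groups share more than 1 number. No member's difference that was called changed its sign under any alternative. With an offset of 50, with detection p-values under 0.05 and with detection on all 4 arrays, none of the 32, 32 and 24 member differences moved by more than the probe SD, against 12 of 32 on the deposited values, 6 of 32 with median scaling, 3 of 32 without background correction and 1 of 32 with the brightest probe. On the deposited values 0 members were higher and 0 lower for IL1 against Con, IL1_TSA against IL1 and IL1_TSA against Con_TSA, and 1 (BMP4) was lower for Con_TSA against Con. Without background correction 1 member was lower for IL1 against Con, 2 (BMP4 and TGFB2, without SMAD7) were lower in each TSA comparison, and 0 were higher and 0 lower for IL1_TSA against Con_TSA, as also with an offset of 50. Of 10128 genes, 361 were lower without background correction for IL1 against Con, 1163 for Con_TSA against Con and 1374 for IL1_TSA against IL1. For IL1_TSA against Con_TSA 195 genes were higher and 52 lower, and with an offset of 50 these were 285 and 144. Median scaling shifted the median of all genes to -0.10, -0.19, 0.22 and 0.35 for IL1 against Con, Con_TSA against Con, IL1_TSA against IL1 and IL1_TSA against Con_TSA. It changed the share of called genes that were higher from 49.8% to 32.4% for Con_TSA against Con, from 53.8% to 69.8% for IL1_TSA against IL1 and from 60.4% to 98.0% for IL1_TSA against Con_TSA, and the deposited values changed it from 51.9% to 79.8% for IL1 against Con and from 60.4% to 89.0% for IL1_TSA against Con_TSA. With median scaling 3 members (SMAD6, ID2 and ID3) were higher for IL1_TSA against IL1, and 2 (BMP2 and TGFB2) were higher and 0 lower for IL1_TSA against Con_TSA. Relative to the median of all genes ID2 then stood 0.54 above Con on Con_TSA and 0.50 above IL1 on IL1_TSA. Keeping probes detected on all 4 arrays dropped SMAD6 and TGFB2, and left 1 member lower for IL1 against Con and 0 higher for IL1_TSA against IL1. Of the 8350 genes then left, 528 were lower for IL1 against Con and 1501 higher for IL1_TSA against IL1. With the brightest probe 2 members (SMAD6 and ID2) were higher for IL1_TSA against IL1, as were 2146 of 10128 genes. At 2-fold 0 members were lower for IL1 against Con, 1 (TGFB2) was lower in each TSA comparison, and 0 were higher and 0 lower for IL1_TSA against Con_TSA. Of 10128 genes, 178 were lower at 2-fold for IL1 against Con, 724 for Con_TSA against Con and 950 for IL1_TSA against IL1. For IL1_TSA against Con_TSA 143 genes were higher and 22 lower. The cause of these changes was not tested. With 1 array per condition no difference has a replicate check, and where the dimmer array did not detect a gene (SMAD6 on IL1, TGFB2 on Con_TSA) the difference gives only a bound.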
